A study of Schizosaccharomyces pombe with 8 samples.

Results

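The genes examined here encode enzymes that build amino acids in fission yeast, Schizosaccharomyces pombe. They were chosen by name, as genes with a probe set of their own whose symbol is arg, his, lys, leu, ilv, trp, ser, aro, pro or thr followed by digits. This gave 31 genes of 2896 S. pombe genes measured, with 8 arg, 6 his, 5 lys, 3 leu, 2 ilv and 4 trp genes and 1 gene each for ser, aro and pro. No thr gene was among them, and each of the 31 had 1 probe set. The reference annotation holds 48 protein-coding genes whose symbol fits the rule, and the other 17, ilv3 and thr1 among them, were not analysed here.

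Expression was measured on 8 Affymetrix Yeast_2 arrays, 2 in each of 4 groups. The wild type was strain 972h- and the mutant was strain AV25, of mating type h- with pap1 replaced by kanMX6. Both strains were grown in yeast extract medium and moved to phosphate-buffered saline, and treated cells received 3 mM detaNONOate, a donor that releases nitric oxide, for 15 min at 30 °C. Control cells of each strain received the same concentration of detaNONOate that had already decomposed. All 4 groups were therefore held in saline, away from the growth medium, and the labels state that control and treated cells were distributed from the same flask. Each pair of arrays is labelled as biological replicates, and this number limits the precision of every value below. The deposited values are log2 expression summaries, relative to the other RNA on the array, so total RNA per cell was not measured. A gene is said to rise or fall where the Benjamini-Hochberg adjusted p over all 2896 genes was under 0.05 in limma, and all errors on changes are limma's SE with n = 2 per group.

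Fission yeast makes all of these amino acids from central metabolites, so a strain lacking one of the enzymes needs that amino acid in its medium. Histidine and tryptophan synthesis both draw on phosphoribosyl pyrophosphate, arginine and proline are built from glutamate, and lysine is made through aminoadipate, the route used by fungi. The ilv enzymes serve isoleucine and valine, and leucine branches off the valine route. In budding yeast many of these genes are known as targets of the general amino acid control, in which the eIF2 kinase Gcn2 senses uncharged tRNA and transcription of several pathways rises together. Pap1 is a transcription factor of the bZIP family that drives defences against oxidants, and the comparison of strains asks how the response to nitric oxide differs without it.

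The pap1 probe set read 9.90 and 9.93 in wild type control arrays and 10.11 and 10.09 in treated ones. In the deletion it read 2.33 and 2.35 in control and 2.14 and 2.20 in treated arrays, below 3.41, a background level set at the 95th percentile of probe sets designed for Saccharomyces cerevisiae. All 31 amino acid genes lay above this level in every array, between 4.70 and 12.51. Several control probe sets moved with treatment. The difference between 3' and 5' signal, as the median over 7 S. pombe control transcripts, went from 1.34 ± 0.08 (SD, n = 2) in control to 3.35 ± 0.02 in treated arrays of wild type, and was 1.65 ± 0.01 and 2.64 ± 0.12 in the deletion. The SD is between arrays and not between transcripts. TFIID alone went down, from 1.22 and 1.23 to -0.35 and -0.40 in wild type and from 1.62 and 1.64 to 0.63 and 0.62 in the deletion. ACT1 went from 1.06 and 1.10 to 4.62 and 4.63 in wild type. The median difference over 4 Bacillus subtilis control genes, which the cells do not carry, was 3.32 ± 0.12 and 4.33 ± 0.05 in wild type. In the deletion it was 3.32 ± 0.07 and 3.80 ± 0.05. The 5' probe sets of the B. subtilis dap, phe and thr genes lay below the 3.41 background in every array. That of B. subtilis lys was above it only in the wild type control arrays (4.00 and 4.13). This difference therefore sets 3' signal mostly against background. The median of 7 Escherichia coli control probe sets went from 7.37 ± 0.08 in control to 8.67 ± 0.10 in treated wild type arrays, against 7.27 ± 0.19 and 7.38 ± 0.13 in the deletion. The part of these shifts in the changes given below was not tested gene by gene. With the 3' to 5' difference as a covariate, the median treatment effect of the 31 genes over both strains went from -0.07 to 0.58 for the S. pombe transcripts and to 0.46 for the B. subtilis genes. By this mean effect 12 of the 31 genes rose and 15 fell, beside 42.0% rising and 38.4% falling among all genes, against 20 and 0 with the first covariate and 8 and 0 with the second. Of all genes 17.6% rose and 10.7% fell with the first covariate (median 0.10), and 9.39% and 6.60% with the second (median 0.09). In limma the count of the 31 genes falling at an unadjusted p under 0.05 was also 0 with either. In that fit the covariate and a difference in response between the strains cannot be told apart. The S. pombe difference was at most 1.65 in control arrays and at least 2.56 in treated ones. For B. subtilis these limits were 3.40 and 3.77. A treatment effect at an equal difference therefore lies where there is no array, and no conclusion is drawn from these counts.

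**Figure D1:**
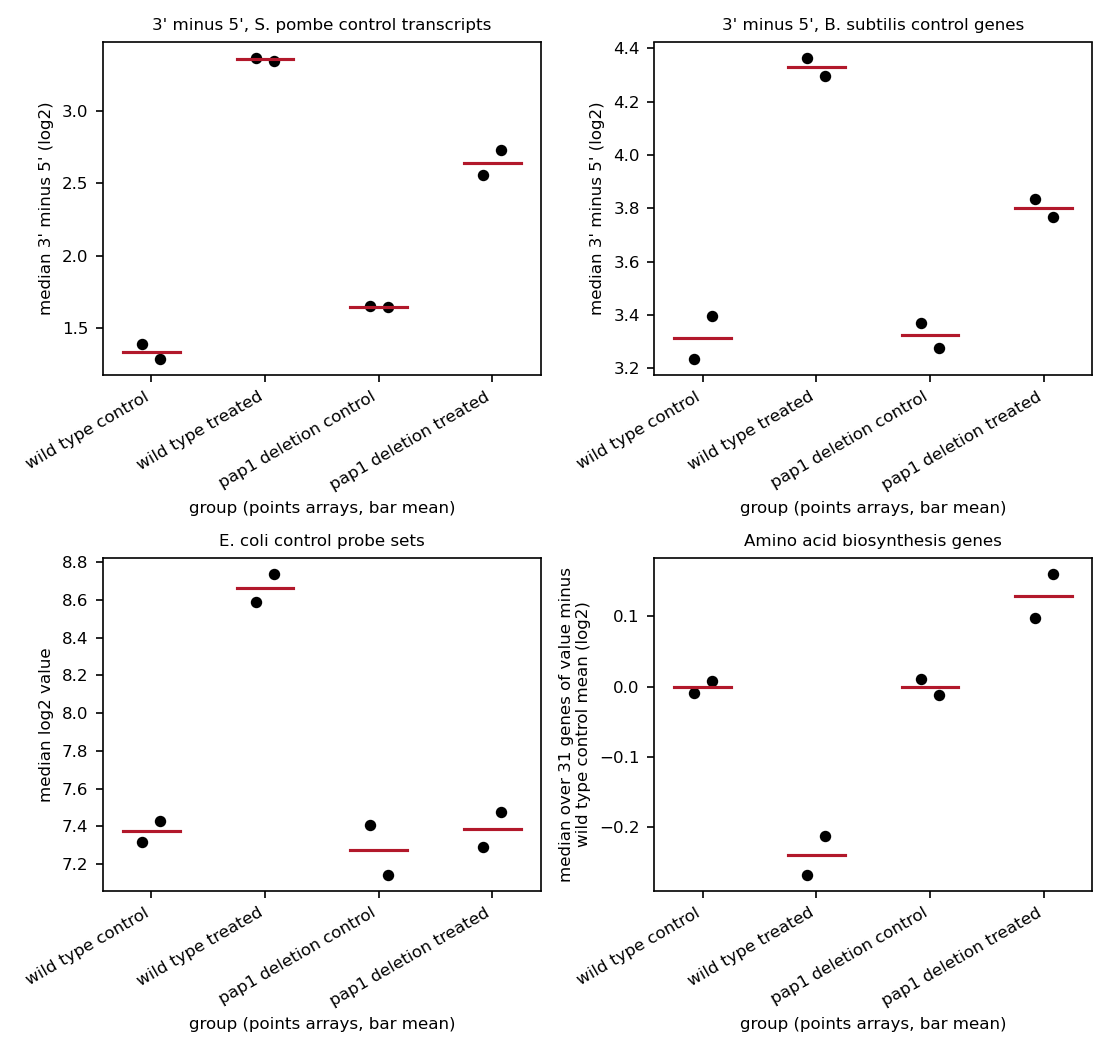
Each panel gives 1 summary of every array by group, on the log2 scale, with points for the 2 arrays and a bar for their mean; the y axes do not start at 0. The 3' minus 5' differences were highest in wild type treated arrays and next highest in the treated deletion, the E. coli controls were raised in wild type treated arrays, and the median of the 31 genes relative to the wild type control mean was lowest in wild type treated and highest in deletion treated arrays.

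In wild type cells more amino acid biosynthesis genes fell than rose after 15 min of nitric oxide in the deposited values, and the rises were mainly in histidine, tryptophan and proline genes. Of the 31 genes 17 fell, 8 rose and 6 did not pass, beside 39.7% falling and 40.5% rising among all genes tested. Their median change was -0.24, against 0.02 over all genes. The largest fall was in ser2 (-1.45 on the log2 scale) and the largest rise in his5 (1.15). After quantile normalization across genes of S. pombe the counts were about even, with 13 falling and 12 rising beside 35.3% and 46.7% of all genes, and the median was -0.07 beside 0.10. With each array centred on its median S. pombe gene 16 fell and 9 rose, beside 35.9% and 46.9% of all genes, with a median of -0.16 beside 0.10. Changes that passed in both settings but moved by over 1.5 times after quantile normalization were those of his1 (-0.20), leu1 (-0.17), leu3 (-0.26), his2 (0.55), trp1 (0.48), trp2 (0.34), trp3 (0.45) and pro1 (0.50).

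**Figure D2:**
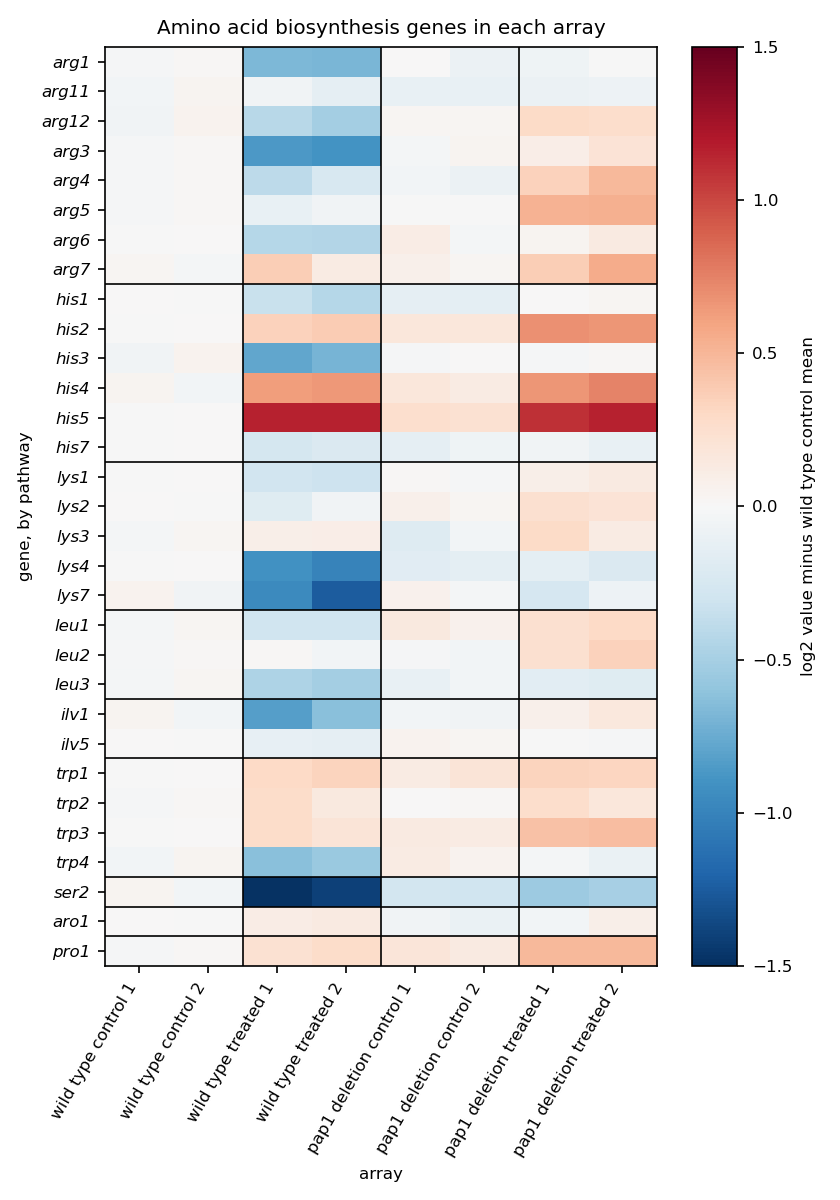
Rows are the 31 genes by pathway, columns the 8 arrays, and colour is the log2 value minus the gene's mean in the 2 wild type control arrays, on the scale of the colour bar. The 2 arrays of a group look alike for nearly every gene; blue cells are concentrated in the wild type treated columns, and his5 is the darkest red in both treated groups.

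Histidine genes split into 3 that rose and 3 that fell in wild type, beside 40.5% rising and 39.7% falling among all genes. The gene his5, which encodes imidazoleglycerol-phosphate dehydratase, read 8.99 and 8.998 in control and 10.15 and 10.14 in treated wild type arrays. In the deletion it read 9.25 and 9.22 in control and 10.09 and 10.15 in treated arrays. Both treated groups thus lay above both control groups without overlap, and the wild type rise was 2.22-fold (1.15 ± 0.04, adjusted p = 3.07e-07). The enzyme before it in the pathway, imidazoleglycerol-phosphate synthase (his4), rose by 0.63 ± 0.05, from 9.97 and 9.89 to 10.55 and 10.58, and in the deletion it went from 10.10 and 10.06 to 10.60 and 10.68. Histidinol dehydrogenase (his2), which catalyses the last steps, rose by 0.36 ± 0.04, from 10.08 and 10.11 to 10.43 and 10.48, and in the deletion it went from 10.26 and 10.26 to 10.78 and 10.76. For both genes every treated array lay above every control array. The aminotransferase his3, which acts between his5 and his2, went the other way. It read 9.47 and 9.58 in control and 8.75 and 8.83 in treated wild type arrays, a change of -0.74 ± 0.05 (adjusted p = 8.76e-06). The 4 deletion arrays of his3 lay together between 9.50 and 9.54, within the range of the wild type controls. ATP phosphoribosyltransferase his1, the entry enzyme, stood at -0.38 ± 0.05 and his7, which acts at the next steps, at -0.24 ± 0.05, and both falls passed, though his7 was at -0.01 and no longer passed after quantile normalization. Neighbouring steps of the same route therefore changed in opposite directions.

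In the tryptophan route 3 of 4 genes rose in wild type and trp4 fell, beside 40.5% and 39.7% of all genes. The multifunctional trp1, which carries part of anthranilate synthase, read 10.41 and 10.42 in control and 10.71 and 10.75 in treated wild type arrays, a rise of 0.31 ± 0.04 (adjusted p = 0.000250). In the deletion trp1 read 10.54 and 10.61 in control and 10.75 and 10.74 in treated arrays, above the wild type controls throughout. Its partner subunit trp3 rose by 0.23 ± 0.04 and tryptophan synthase trp2 by 0.21 ± 0.06. Anthranilate phosphoribosyltransferase trp4, which takes up the product of anthranilate synthase, read 8.31 and 8.40 in control and 7.73 and 7.80 in treated arrays. In the deletion it read 8.47 and 8.41 in control and 8.33 and 8.25 in treated arrays, so both wild type treated arrays were the lowest of the 8. In wild type it fell by 0.59 ± 0.05 on the log2 scale (adjusted p = 3.27e-05). The arom protein gene aro1, which supplies chorismate precursors to this route, stood at 0.12 ± 0.05 and did not pass (adjusted p = 0.0597), but passed at 0.21 with centred arrays and 0.26 after quantile normalization. The proline gene pro1, for glutamyl phosphate reductase, rose by 0.25 ± 0.04 (adjusted p = 0.000819), from 9.29 and 9.32 to 9.54 and 9.58. The deletion arrays of pro1 read 9.49 and 9.44 in control and 9.79 and 9.79 after treatment, again without overlap.

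Arginine genes mostly fell in wild type, with 5 falls, 1 rise and 2 that did not pass among 8 (median -0.38). The shares of all genes were 39.7% falling and 40.5% rising. Ornithine carbamoyltransferase, arg3, read 8.05 and 8.09 in control and 7.21 and 7.17 in treated wild type arrays. In the deletion it read 8.04 and 8.11 in control and 8.17 and 8.27 in treated arrays, so the treated wild type arrays stood apart from the other 6. The wild type fall was 1.84-fold (-0.88 ± 0.05, adjusted p = 3.19e-06). Acetylornithine aminotransferase arg1 (-0.68), argininosuccinate synthase arg12 (-0.46), acetylglutamate synthase arg6 (-0.44) and the large subunit of carbamoyl-phosphate synthase, arg4 (-0.32), fell as well, arg4 without passing after quantile normalization (-0.07). The small subunit of that enzyme, arg5, did not pass at -0.08 ± 0.04, and was at 0.13 and past the threshold after quantile normalization. Argininosuccinate lyase, arg7, which completes arginine, read 7.60 and 7.55 in control and 7.94 and 7.69 in treated arrays, a rise of 0.24 ± 0.09 (adjusted p = 0.0423). In the deletion arg7 read 7.65 and 7.60 in control and 7.94 and 8.13 in treated arrays. The wild type rise was 0.12 and did not pass without wild type treated array 1 (adjusted p = 0.216). The gene arg11, for the kinase and reductase of the acetylglutamate steps, lies next to arg3 on chromosome I with no protein-coding gene between them in the reference annotation. It stood at -0.10 ± 0.05 and did not pass, while its neighbour arg3 had the largest fall of the arginine genes.

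Of 5 lysine genes 3 fell in wild type and none rose in the deposited values, beside 39.7% and 40.5% of all genes. The gene lys7, for the phosphopantetheinyl transferase that activates aminoadipate reductase, read 6.004 and 5.91 in control and 5.003 and 4.70 in treated wild type arrays. In the deletion it read 6.02 and 5.92 in control and 5.70 and 5.88 in treated arrays. It was the dimmest of the 31 genes, its 2 wild type treated arrays were the lowest, and its fall was 2.15-fold (-1.10 ± 0.11, adjusted p = 4.55e-05). Homocitrate synthase lys4, the entry enzyme, read 11.77 and 11.79 in control and 10.87 and 10.78 in treated wild type arrays, a change of -0.96 ± 0.05. In the deletion lys4 read 11.61 and 11.64 in control and 11.63 and 11.56 in treated arrays, groups that overlap. Aminoadipate reductase itself, lys1, stood at -0.30 ± 0.04 and passed, but was at -0.08 and did not pass after quantile normalization. Saccharopine dehydrogenase lys3 (0.09 ± 0.07) did not pass, but passed as a rise of 0.31 after quantile normalization (adjusted p = 0.00569), and lys2 (-0.11 ± 0.05) did not pass. Homoaconitase lys2 and isopropylmalate isomerase leu2 carry iron-sulfur clusters, which nitric oxide is known to attack in proteins. In wild type lys2 read 10.61 and 10.61 in control and 10.43 and 10.56 in treated arrays, and leu2 read 10.32 and 10.34 in control and 10.35 and 10.29 in treated arrays. The change of leu2 was -0.01 ± 0.05 (adjusted p = 0.826), and it passed as a rise of 0.20 after quantile normalization.

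The branched-chain genes had 4 falls and no rise among 5 in wild type, and the serine gene fell most of all. Acetolactate synthase ilv1 read 11.13 and 11.05 in control and 10.27 and 10.46 in treated arrays, a change of -0.73 ± 0.07 (adjusted p = 4.62e-05). In the deletion ilv1 read 11.05 and 11.03 in control and 11.17 and 11.25 in treated arrays, all above the wild type treated values. Ketol-acid reductoisomerase ilv5 stood at -0.13 ± 0.04, and its fall did not pass with centred (-0.04) or quantile normalized (-0.07) arrays. Isopropylmalate synthase leu3, the first enzyme of the leucine branch, fell by 0.49 ± 0.05 on the log2 scale, from 11.81 and 11.87 to 11.38 and 11.33, and read 11.73 and 11.79 in control and 11.68 and 11.66 in treated deletion arrays. Isopropylmalate dehydrogenase leu1 fell by 0.30 ± 0.05. Phosphoserine phosphatase ser2, which completes serine, read 7.77 and 7.68 in control and 6.24 and 6.32 in treated wild type arrays. In the deletion it read 7.45 and 7.43 in control and 7.18 and 7.23 in treated arrays. All 4 groups were apart, and the wild type fall was 2.73-fold (-1.45 ± 0.05, adjusted p = 2.93e-07).

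In cells lacking pap1 the same treatment was followed mainly by rises. Of the 31 genes 18 rose, 2 fell and 11 did not pass, beside 35.5% rising and 26.9% falling among all genes tested. The median change was 0.16, against 0.05 over all genes. The largest rises were those of his5 (0.88 ± 0.04, adjusted p = 6.78e-06), his4 (0.56 ± 0.05) and arg5 (0.53 ± 0.04, adjusted p = 5.10e-05). The 2 falls were in ser2 (-0.23 ± 0.05, adjusted p = 0.00557) and trp4 (-0.15 ± 0.05, adjusted p = 0.0467). The fall of trp4 did not pass with centred or quantile normalized arrays. Without pap1 deletion control array 1 or 2 fewer of the 31 genes passed as rises, and a smaller share of all genes did so too. Of the 18 rises, 7 did not pass in at least 1 of the 8 fits that left out an array, namely arg3, his1, lys1, lys2, leu1, trp1 and trp2.

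Among arginine genes 5 of 8 rose in the deletion and none fell, beside 35.5% rising and 26.9% falling among all genes. Both subunits of carbamoyl-phosphate synthase were higher after treatment there. The small subunit gene arg5 read 9.26 and 9.25 in control and 9.78 and 9.80 in treated deletion arrays, and arg4 read 9.57 and 9.51 in control and 9.95 and 10.09 in treated arrays. Neither pair of groups overlapped, and arg4 rose by 0.48 ± 0.07 (adjusted p = 0.000750). The genes arg7 (0.41), arg12 (0.25) and arg3 (0.15) also rose. Histidine genes had 4 rises of 6, with his2 at 0.51 and his1 at 0.16, while his3 (0.01) and his7 (0.02) did not pass. Tryptophan genes trp3 (0.32), trp2 (0.20) and trp1 (0.17) rose, as did pro1 (0.33). In the lysine route lys3 (0.32), lys2 (0.16) and lys1 (0.11) rose, and lys4 (-0.03) did not pass, nor did lys7 (-0.18), which passed as a fall after quantile normalization (-0.26). In the leucine route leu2 (0.32) and leu1 (0.16) rose and leu3 (-0.10) did not pass, nor did ilv1 (0.17) and ilv5 (-0.05). The iron-sulfur enzyme genes read 10.31 and 10.29 in control and 10.57 and 10.67 in treated deletion arrays for leu2 (adjusted p = 0.00108), and 10.69 and 10.64 in control and 10.85 and 10.81 in treated arrays for lys2 (adjusted p = 0.0299). The rise of lys2 did not pass in 6 of the 8 fits that left out an array, where the adjusted p reached 0.144.

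**Figure D3:**
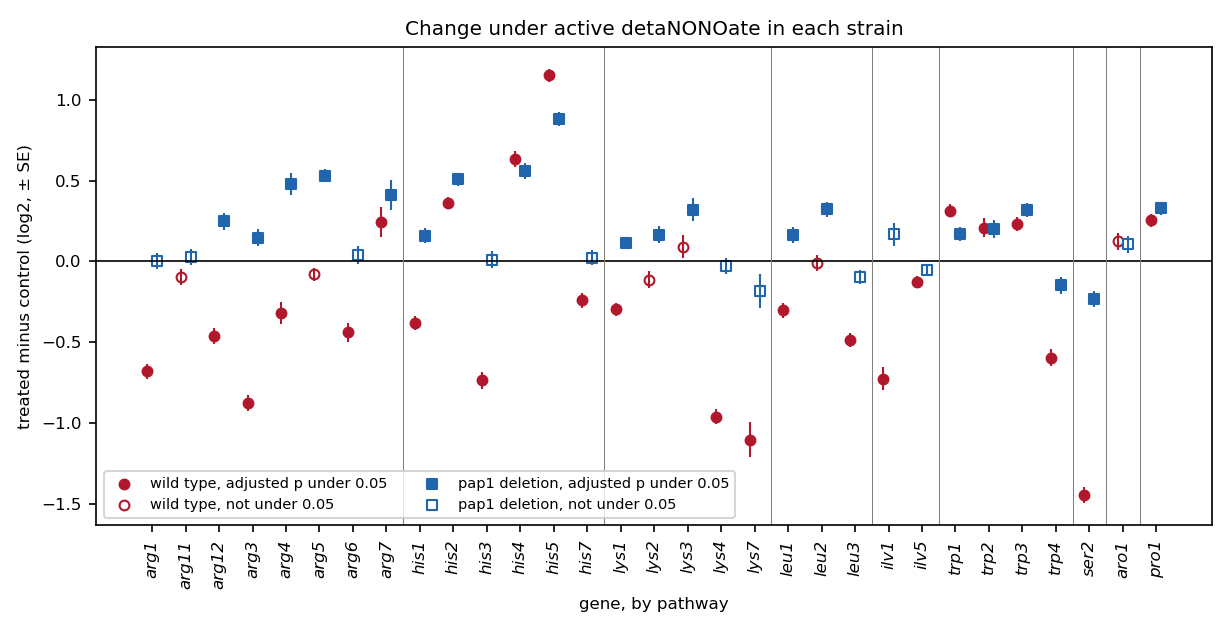
Points give treated minus control on the log2 scale with limma's SE for each gene, by pathway, as circles for wild type and squares for the pap1 deletion; filled points had an adjusted p under 0.05. The squares stand above the circles for 26 of the 31 genes, and his2, his4, his5, trp1, trp2, trp3, pro1 and arg7 are above 0 in both strains.

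All 8 genes that rose in wild type also rose in the deletion, where 67.6% of the 1174 genes that rose in wild type did so. The deletion rises of trp1 and trp2 and the wild type rise of arg7 did not pass in every fit that left out an array. Of the 17 that fell in wild type, 6 rose in the deletion (arg3, arg4, arg12, his1, lys1 and leu1), 2 fell and 9 did not pass. The deletion rises of arg3, his1, lys1 and leu1 did not pass in every fit that left out an array. After quantile normalization the wild type falls of arg4 (-0.07) and lys1 (-0.08) did not pass. Among all 1149 genes that fell in wild type, 7.66% rose in the deletion, 57.2% fell and 35.2% did not pass. The median change in the deletion was 0.02 for these 17 genes and -0.23 for the 1149. The 4 genes arg5, lys2, lys3 and leu2 rose in the deletion and did not pass in wild type, and arg11 and aro1 passed in neither strain, although aro1 passed as a rise in both after quantile normalization (0.26 in wild type and 0.13 in the deletion). Over the 31 genes the changes in the 2 strains had a Pearson correlation of 0.79 and a Spearman correlation of 0.75, as over all 2896 genes (0.79 and 0.76). These correlations are across genes, which share arrays and are not independent replicates.

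**Figure D4:**
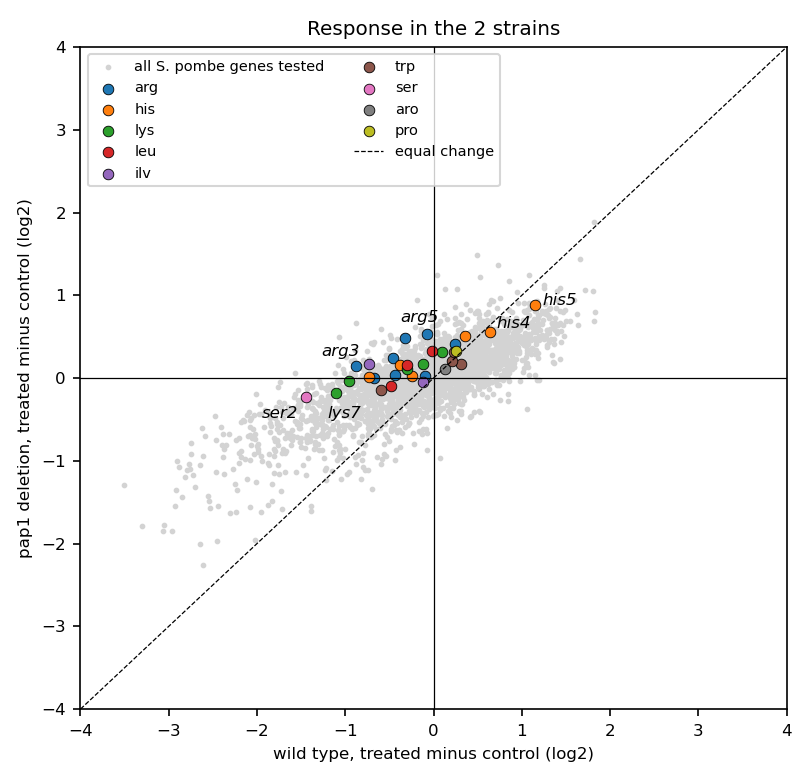
Each point is a gene, with the wild type change on the x axis and the pap1 deletion change on the y axis, both log2; grey points are all genes tested, coloured points the amino acid genes by pathway, and the dashed line marks equal change. Grey points form a band flatter than the dashed line, and 26 of the 31 coloured points lie above that line, most of them left of 0.

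The interaction term asked whether the response itself differed between the strains. It was positive, meaning a higher change in the deletion, and passed for 19 of the 31 genes, and was negative and passed for 1, beside 33.9% and 25.1% of all genes. The median difference was 0.39, against 0.05 over all genes. The 5 largest were those of ser2 (1.21 ± 0.07, adjusted p = 2.94e-05), arg3 (1.02 ± 0.07, adjusted p = 5.38e-05), lys4 (0.93 ± 0.07), lys7 (0.92 ± 0.15) and ilv1 (0.89 ± 0.10). The exception was his5, whose rise was smaller in the deletion by 0.27 ± 0.06 (adjusted p = 0.00566). By pathway, the difference was positive and passed for 6 of 8 arginine, 4 of 5 lysine and 3 of 3 leucine genes, and for 1 of 4 tryptophan genes, trp4. After quantile normalization 16 were positive and 3 negative, his4 and trp1 joining his5, beside 28.0% and 33.7% of all genes, with a median of 0.19 beside -0.05. With centred arrays 17 were positive and 2 negative, beside 29.2% and 32.5% of all genes. Under both scalings his7 and lys2 no longer passed, nor did leu2 after quantile normalization (0.11, adjusted p = 0.141), where leu3 (0.19), lys1 (0.22) and his5 (-0.43) moved by over 1.5 times. The 3' to 5' difference over S. pombe control transcripts rose by 2.01 in wild type and by 0.99 in the deletion in the same arrays, and the 2 kinds of difference between strains cannot be told apart.

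Without active nitric oxide 26 of the 31 genes did not pass between the strains. In control cells 4 of 31 genes were higher in the deletion and 1 was lower, beside 8.22% higher and 9.15% lower among all genes, and the median difference was 0.00. The 3 largest were his5 (0.24 ± 0.04, adjusted p = 0.0109), his2 (0.17 ± 0.04, adjusted p = 0.0302) and trp1 (0.16 ± 0.04, adjusted p = 0.0405), with pro1 (0.16) the other. The lower gene was ser2 (-0.29 ± 0.05, adjusted p = 0.0124). This comparison shares the wild type control arrays with the wild type response. Leaving out 1 control array of either strain left fewer of the 31 genes past the threshold, and a smaller share of all genes.

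In treated cells 23 of the 31 genes were higher in the deletion than in wild type and 0 were lower, beside 39.3% higher and 26.5% lower among all genes. The median difference was 0.34 against 0.06. At an unadjusted p under 0.05 the count lower was likewise 0. After quantile normalization 19 were higher and 4 lower, namely arg11 (-0.13), his5 (-0.17), trp1 (-0.13) and aro1 (-0.22), beside 31.5% and 35.2% of all genes, with a median of 0.20 beside -0.03. The largest differences were in arg3 (1.03 ± 0.05), lys7 (0.94 ± 0.11) and ser2 (0.93 ± 0.05). This comparison shares its treated arrays with the interaction term, so the 2 sets of values are not independent.

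Other genes of amino acid metabolism were counted from 4 lists, to be read beside the shares of all genes, 40.5% rising and 39.7% falling in wild type and 35.5% and 26.9% in the deletion. In the list of other synthesis genes 4 of 12 measured rose, 4 fell and 4 did not pass in wild type (median 0.01), and 9 rose and 2 fell in the deletion (median 0.23). Homoserine O-acetyltransferase met6, of the methionine route, fell by 1.98 ± 0.06 on the log2 scale in wild type and by 0.80 ± 0.06 in the deletion. The branched-chain aminotransferase eca39, which completes leucine, isoleucine and valine, read 11.74 and 11.78 in control and 10.82 and 10.82 in treated wild type arrays. It read 11.71 and 11.69 in control and 11.82 and 12.001 in treated deletion arrays. It fell by 0.94 ± 0.06 on the log2 scale in wild type and rose by 0.21 ± 0.06 in the deletion (adjusted p = 0.0203). In the list for general amino acid control and eIF2, 3 of 8 rose and 5 fell in wild type, and 4 rose, 2 fell and 2 did not pass in the deletion. Of the eIF2 kinases in that list, hri1 fell by 1.08 ± 0.05 and hri2 rose by 1.03 ± 0.08 in wild type. In the deletion hri1 fell by 0.68 ± 0.05 and hri2 rose by 0.44 ± 0.08. The kinase gcn2, added after its values were seen, read 5.93 and 6.01 in control and 7.002 and 6.95 in treated wild type arrays, a rise of 1.01 ± 0.05 (adjusted p = 2.09e-06). In the deletion gcn2 read 6.36 and 6.24 in control and 6.39 and 6.36 in treated arrays and did not pass (0.07 ± 0.05). Its difference in response was -0.93 ± 0.08 (adjusted p = 7.84e-05). In control cells hri1, hri2 and gcn2 were already higher in the deletion than in wild type, by 0.21, 0.47 and 0.33. For uptake and vacuolar storage of amino acids 0 of 8 rose in limma (0 also at an unadjusted p under 0.05) and 6 fell in wild type (median -0.46), and 4 rose and 1 fell in the deletion (median 0.20). The permease cat1 fell by 1.16 ± 0.05 in wild type and stood at -0.12 ± 0.05 in the deletion without passing. The vacuolar transporter fnx1 fell by 0.62 ± 0.06 in wild type and stood at 0.13 in the deletion without passing. In the list for arginine and proline breakdown 3 genes were measured, car1, car2 and aru1, while the proline genes put1 and put2 were not. Of these 3, 1 rose and 2 fell in wild type, and 1 rose and 2 did not pass in the deletion. The arginase aru1 fell by 0.77 ± 0.05, and car1, also an arginase, rose by 0.29 ± 0.07.

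The changes were set against gene length in the reference annotation. The Spearman correlation of length with the wild type change was 0.16 over the 31 genes and -0.10 over all 2896 genes. For the deletion it was 0.11 and -0.11. These are descriptions across genes hybridized to the same arrays.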

How the data were processed

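Total RNA was labelled as biotin cRNA and hybridized to Affymetrix Yeast_2 arrays, per the labels' protocols. The authors deposited log2 expression values per probe set, for which the submitters' processing notes name RMA, its version not given in the sources used here. Array medians ranged from 3.07 to 3.26 over all probe sets, which include those for S. cerevisiae, and from 7.85 to 7.96 over the S. pombe genes, so the scaling between arrays can move a change. Of 10928 probe sets 2914 carried 1 S. pombe gene, and the brightest per gene gave 2896 genes.

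A mean per group was fitted with limma 3.58.1 (R 4.3.3) over all 8 arrays, with eBayes without trend and Benjamini-Hochberg adjustment over 2896 genes, and a gene was called at adjusted p under 0.05. The procedure was tested on simulated data with independent noise, few genes changed and no shift of whole arrays. A far larger share of genes was called in these data, so that test does not cover their conditions. Genes and lists were chosen with earlier results of these data known. Every gene of the name rule is given, with full values for the largest called rise and fall of each pathway in wild type, the largest changes and differences of the other comparisons, and the iron-sulfur enzymes. Alternatives were other scalings, filters, trend, a replicate block, fewer samples and covariates. Gene names, neighbours and lengths came from the RefSeq annotation ASM294v3, and the promoter motif search planned was not run, since promoter sequences were not used here.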

Additional observations from a re-analysis of the deposited data

Results flagged for a closer look

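The response to nitric oxide differed between the strains for 20 of the 31 amino acid biosynthesis genes, by limma's interaction term at an adjusted p under 0.05, beside 59.1% of all genes tested, so the share of these genes is near that of all genes. The change in the pap1 deletion minus that in wild type, on the log2 scale, was above 0 for 19 of them. Among all genes 33.9% passed above 0 and 25.1% below. In the arginine route it was 1.02 for arg3, 0.80 for arg4, 0.71 for arg12, 0.68 for arg1, 0.61 for arg5 and 0.48 for arg6. In the histidine route it was 0.74 for his3, 0.54 for his1 and 0.26 for his7, and -0.27 for his5, the exception. In the lysine route it was 0.93 for lys4, 0.92 for lys7, 0.41 for lys1 and 0.28 for lys2. Those of his7 and lys2 did not pass with centred or quantile normalized arrays. The leucine genes had 0.47 for leu1, 0.39 for leu3 and 0.33 for leu2, the last not passing after quantile normalization (0.11), and ilv1 had 0.89. The difference was 0.45 for trp4 and 1.21 for ser2. Groups of 2 arrays are too small to test an array for standing apart from its group.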

How the results depend on the processing

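In wild type 17 genes fell and 8 rose, beside 39.7% and 40.5% of all genes. After quantile normalization the counts were about even at 13 and 12, but beside 35.3% and 46.7% of all genes, with a median of -0.07 beside 0.10. The excess of rises in the deletion and of positive differences in response kept its direction under every scaling, filter, trend, sample choice and left-out array tried. The filter on dim genes and the mean over probe sets changed no count of the 31 genes. Falls in the deletion were 2 in the main setting, beside 26.9% of all genes. They were 1 with centred arrays (26.9%), with the 2 groups alone (27.9%) and with a replicate block (25.9%). With an intensity trend they were 3 (27.7%), and the count also differed in some fits that left out an array. Negative differences in response were 1 in the main setting (25.1% of all genes) and 2 with centred arrays (32.5%). They were 3 with quantile normalization (33.7%) and 2 with an intensity trend (26.9%). In control cells the count higher in the deletion was 4 (8.22% of all genes), but 7 with an intensity trend (12.7%) and 1 with the replicate block (5.39%). The count lower was 1 (9.15%), but 3 with the trend (12.6%) or the 2 groups alone (13.8%). Leaving out a control array lowered the count higher, as it lowered the share of all genes. The count lower also differed in some fits that left out an array. In treated cells the count lower was 0 (26.5% of all genes), but 1 with centred arrays (32.5%) and 4 with quantile normalization (35.2%). It also differed in some fits that left out an array. The mean effect over both strains had 12 higher and 15 lower, beside 42.0% and 38.4% of all genes. This became 20 and 0 with the S. pombe 3' to 5' difference as a covariate, beside 17.6% and 10.7%. With that of the B. subtilis genes, chosen after seeing the data, it was 8 and 0, beside 9.39% and 6.60%. Neither covariate overlapped between control and treated arrays, so no conclusion is drawn from these counts. The change of leu2 in wild type turned from -0.01 to 0.20 after quantile normalization. The rise of arg7 in wild type did not pass in 7 alternatives, with adjusted p between 0.0569 and 0.216 there. In each of these the cause was not tested.

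Replicate numbers are shared between groups, but no label says what a number marks. The differences between replicates 1 and 2 correlated across genes at -0.04 between wild type control and treated, -0.26 in the deletion, -0.08 between controls and -0.01 between treated groups. With the replicate block 7 genes rose and 17 fell in wild type, beside 39.9% and 39.1% of all genes. In the deletion 17 rose and 1 fell, beside 34.0% and 25.9%. Of the differences in response 19 were positive and 1 negative, beside 33.0% and 24.4%. With 2 arrays per group, small changes near the threshold are those the data limit most.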
